A study of Bos taurus with 12 samples.

Results

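The 8 mature miRNAs described here, miR-188, miR-362-3p, miR-362-5p, miR-500, miR-502a, miR-502b, miR-532 and miR-660, come from hairpins that lie together within the span of CLCN5, a gene for a chloride/proton exchanger of endosomes. They were taken by name from the 388 mature miRNAs of the deposited table. Entries of miR-188, miR-362, miR-500, miR-502, miR-532 and miR-660 were kept whatever their letter or arm, and where a mature miRNA was listed with more than 1 precursor the entry was chosen by the highest mean TPM over the 12 libraries. That mean and the listing itself, for which every entry exceeded 0.5 TPM in at least 2 libraries, are the measured values that the rule itself uses. The set was chosen with earlier results of these data known. This gave 8 miRNAs from 9 of 426 entries, since miR-502a was listed with 2 precursors. Small RNA was sequenced from mammary gland biopsies of 12 multiparous, healthy Chinese Holstein cows, each cow giving 1 library. HP (high milk protein percentage) and LP (low) were sampled at peak lactation, HD (high) and LD (low) while the cows were dry before calving, with 3 cows in each group. Cows were classed as high or low on herd records of the lactation before. The 2 stages were sampled in different cows of the same breed, and each biopsy is whole gland tissue.

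A miRNA cluster is commonly made as 1 long primary transcript, from which each hairpin is cut in the nucleus and then trimmed to a short duplex in the cytoplasm. Either strand of that duplex, the 5p or the 3p arm, can be loaded to silence mRNAs and is otherwise degraded, so miRNAs born together need not accumulate together. In other tissues miR-532 and miR-362 are known mainly from tumours, miR-188 from the balance of bone and fat formation in marrow, and miR-660 from leukaemia and lung cancer. Mature sequences of miR-500 and the miR-502 group are known as closely related, but they were not compared here. Reads of any near-identical copies may have been divided between them or counted at more than 1 entry.

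In RefSeq's gene order for the bovine X chromosome the hairpins follow each other as mir-532, mir-188, mir-502a-2, mir-502b, mir-362, mir-500, mir-660 and mir-502a-1. All 8 precursors fall within CLCN5, with 0 other listed genes starting between the first and the last. That annotation is of ARS-UCD2.0, whereas the reads were mapped to ARS-UCD1.2, so it served for names and order only. The 2 entries of miR-502a, from hairpins at different places in this order, differed by at most 0.44 TPM in any library, and mir-502a-1 was the one kept.

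Levels are given as normalized TPM, the deposited TPM (reads scaled to a fixed total per library, with no correction for length) after division by the library's size factor. The fewest reads behind any of the members' values was 52. Reads behind the TPM of the 426 entries numbered 6026797 to 13374170 a library in lactation and 11047701 to 23577941 in the non-lactating period. They are counts summed over the listed entries and not sequencing depth, since the paper reports a narrow range of clean reads over the libraries. A read may be counted at more than 1 entry, as the near-equal entries of miR-502a allow, so they need not be distinct reads. Size factors ran from 0.764 to 1.5, with the highest in HD replicate 1 and LD replicate 1. Of 7 epithelial marker miRNAs (miR-200a, miR-200b, miR-200c, miR-141, miR-429, miR-205 and miR-375) all were above 0 in every library.

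Among the members, miR-660 and miR-532 made up nearly the whole signal. miR-660 held 71.6% of the summed TPM of the 8 miRNAs in lactation and 70.6% outside it, and miR-532 held 22.3% and 22.7%. By mean TPM over the 12 libraries miR-660 ranked 55 and miR-532 ranked 88 of the 388 miRNAs. The other 6 ranked between 174 (miR-362-5p) and 235 (miR-502a).

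**Figure D1:**
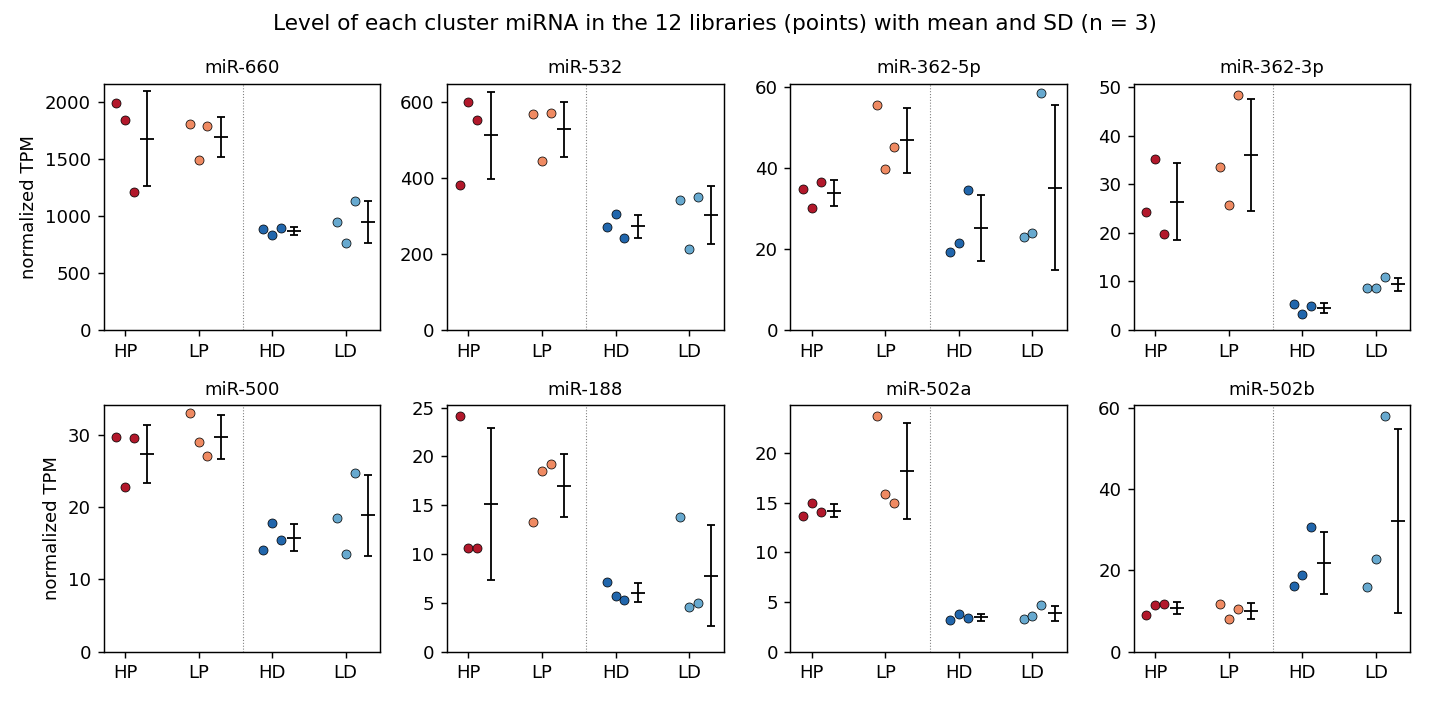
Normalized TPM (linear axes from 0) of each miRNA in the 3 libraries of HP, LP, HD and LD, with the group mean and SD as a black bar beside the points. Levels of miR-660, miR-532, miR-362-3p and miR-502a lie lower in every HD and LD library than in any HP or LP library, and miR-502b lies higher.

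In lactation the order of mean normalized TPM was miR-660, miR-532, miR-362-5p, miR-362-3p, miR-500, miR-502a, miR-188 and miR-502b. The step from miR-660 to miR-532 and from miR-532 to miR-362-5p exceeded the range of the 6 libraries, whereas every further pair of neighbours in this order had overlapping ranges. The non-lactating order was miR-660, miR-532, miR-362-5p, miR-502b, miR-500, miR-362-3p, miR-188 and miR-502a. There, too, the ranges parted miR-660 from miR-532 and miR-532 from miR-362-5p, and further down only miR-500 (13.5 to 24.7) from miR-362-3p (3.34 to 10.96). miR-502b, last in lactation, thus stood next after miR-362-5p outside it.

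Lactation was compared with the non-lactating period over all 12 libraries with limma. Of the 8 members, 6 were higher in lactation, 1 (miR-502b) was lower and 1 (miR-362-5p) did not pass a Benjamini-Hochberg adjusted p of 0.05. This stands beside 44.3% of all 388 miRNAs past the same threshold, with 22.2% higher and 22.2% lower in lactation. The median log2 fold change (lactation over non-lactating) was 0.87 over the 8 members and -0.01 over all miRNAs. In normalized TPM the 6 lactation and the 6 non-lactating libraries did not overlap in 5 of the 8 members, which held for 21.9% of all miRNAs (11.6% higher and 10.3% lower in lactation, against 4 and 1 of the members). For miR-660 and miR-532 this depended on the size factors, as given below.

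**Figure D2:**
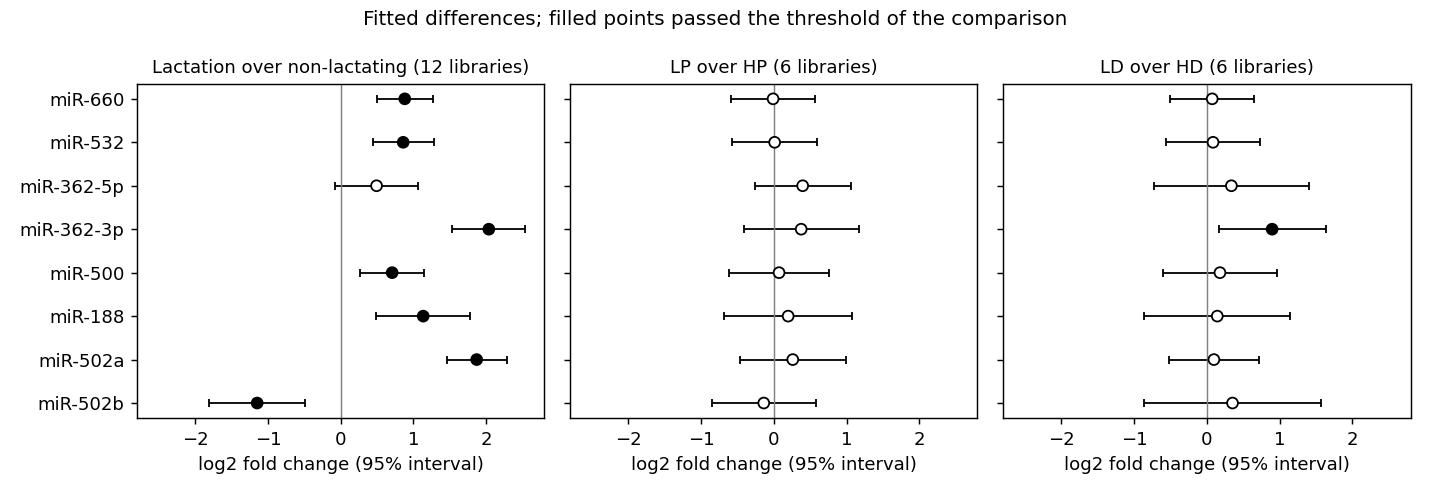
Log2 fold change of each miRNA (points) with its limma 95% interval, for lactation over the non-lactating period, LP over HP and LD over HD. Filled points passed the threshold of that comparison: 7 in the first panel, with miR-502b alone to the left of 0, 0 in the second, and miR-362-3p in the third.

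The sharpest differences belonged to the low-expressed miR-362-3p and miR-502a. miR-362-3p, the 3′ arm of a hairpin whose arms are both listed, had 24.3, 35.1 and 19.7 normalized TPM in HP and 33.5, 25.8 and 48.4 in LP, against 5.37, 3.34 and 4.91 in HD and 8.65, 8.64 and 10.96 in LD. Every lactation library exceeded every non-lactating one, the mean being 4.46-fold higher (31.2 ± 10.3 against 6.98 ± 2.88, SD, n = 6). Its log2 fold change was 2.04 (SE of 0.23 and adjusted p by limma = 4.28e-05), which ranked 10 by p-value among the 388 miRNAs.

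miR-502a had 13.6, 15.0 and 14.0 normalized TPM in HP, and LP replicate 1 stood highest of the lactation libraries at 23.8, above 15.9 and 14.9 in the other LP libraries. In HD it had 3.14, 3.83 and 3.37, and in LD 3.31, 3.59 and 4.71. The groups of the 2 stages were far apart, with a mean 4.43-fold higher in lactation (16.2 ± 3.79 against 3.66 ± 0.568, SD, n = 6). The fitted log2 fold change was 1.87 (SE of 0.19 and adjusted p by limma = 1.79e-05). On the log2(normalized TPM + 1) scale used for the fits, changes at a few TPM are understated, and the fitted value for miR-502a was 2.10 with 0.1 added and 1.28 with 5 added.

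The abundant members differed less. miR-660 had 1988, 1843 and 1206 normalized TPM in HP and 1804, 1488 and 1787 in LP. In HD it had 888, 831 and 892, and in LD 948, 766 and 1135. The lowest lactation library (HP replicate 3) stood just above the highest non-lactating one (LD replicate 3), and the mean was 1.85-fold higher in lactation (log2 fold change 0.88 with SE of 0.18, adjusted p by limma = 0.00170).

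miR-532, whose hairpin comes first in the gene order, had 381, 601 and 554 normalized TPM in HP and 568, 445 and 572 in LP. Its values were 271, 305 and 242 in HD and 342, 214 and 351 in LD. Again the stages did not overlap, with HP replicate 1 closest to the non-lactating libraries, and the mean was 1.81-fold higher in lactation (log2 fold change 0.86 with SE of 0.19, adjusted p by limma = 0.00343). miR-660 and miR-532, the members with the most reads, had nearly equal log2 fold changes.

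miR-500 ranged from 22.7 to 33.1 normalized TPM in lactation and from 13.5 to 24.7 outside it, where only LD replicate 3 reached into the lactation range. The log2 fold change was 0.71 (SE of 0.20 and adjusted p by limma = 0.0141). miR-188 ranged from 10.6 to 24.1 in lactation (median 15.9) and from 4.56 to 13.8 outside it (median 5.49), the highest value being that of LD replicate 1. Its log2 fold change was 1.13 (SE of 0.30 and adjusted p by limma = 0.00859), and without LD replicate 1 it was 1.36.

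miR-502b ran the other way. It had 9.10, 11.6 and 11.6 normalized TPM in HP and 11.8, 7.98 and 10.5 in LP. In HD it had 16.1, 18.8 and 30.6, and in LD 15.9, 22.8 and 58.1. The highest lactation value lay below the lowest non-lactating value, and the mean was 2.59-fold higher in the non-lactating period (27.0 ± 16.2 against 10.4 ± 1.58, SD, n = 6). Its log2 fold change (lactation over non-lactating) was -1.15 (SE of 0.30 and adjusted p by limma = 0.00863). LD replicate 3 carried much of the spread, and without it the log2 fold change was -0.88 and still past the threshold (limma adjusted p = 0.0142).

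miR-362-5p, from the hairpin next to that of miR-502b, had 34.8, 30.2 and 36.5 normalized TPM in HP and 55.4, 39.7 and 45.1 in LP. Its values were 19.3, 21.5 and 34.5 in HD and 22.8, 23.8 and 58.6 in LD, so that the highest of all 12 values came from a non-lactating library. The log2 fold change was 0.49 (95% interval -0.08 to 1.07, limma adjusted p = 0.155). Without LD replicate 3 it was 0.72 and passed the threshold (limma adjusted p = 0.0223).

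Scaling affected 3 of these calls. With TPM as deposited, without size factors, the log2 fold changes of miR-188 (1.02), miR-500 (0.60) and miR-532 (0.75) kept their direction but not the threshold (limma adjusted p = 0.0692, 0.111 and 0.0606), and 4 of the 8 members passed, 3 higher and 1 lower in lactation. HD replicate 1 and LD replicate 1 had the highest non-lactating TPM of the 8 miRNAs summed before scaling (1836 and 2060, against 807 to 1345 in the other 4 libraries). With size factors 7 members passed both with these 2 libraries and without them, an alternative chosen after the data were seen. Leaving them out was not run on TPM as deposited.

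Markers of several cell types differed between the stages in the same biopsies. Of the 7 epithelial markers 6 were higher in lactation, where their summed level ran from 32477 to 59998 normalized TPM against 17984 to 36874 outside it. Both endothelial markers (miR-126-3p and miR-126-5p) were higher in lactation, summing to between 10876 and 16672 against 5438 to 8603. Lower in lactation were 2 of 3 stromal markers (miR-199a-3p and miR-214, with miR-199a-5p not past the threshold) and 2 of 5 leukocyte markers (miR-142-5p and miR-155). Their summed levels were 8364 to 13563 against 10237 to 19502 for the stromal list and 5728 to 9087 against 6953 to 14500 for the leukocyte list. Of 2 smooth muscle, 3 erythrocyte and 2 measured skeletal muscle markers 0 passed, and no marker on any list was at 0 in a library. The part of these markers, and of the larger summed read counts at listed entries outside lactation, in the result was not tested. In whole tissue fewer cells of a type cannot be told apart from less RNA per cell.

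The summed normalized TPM of the 8 members was 2505, 2570 and 1882 in HP, 2543, 2069 and 2524 in LP, 1224, 1207 and 1228 in HD and 1373, 1057 and 1648 in LD. Lactation libraries lay above non-lactating libraries throughout, by 1.82-fold in the mean and by 1.62-fold on TPM as deposited. On deposited TPM the ranges met, with 2047 in LP replicate 1 below 2060 in LD replicate 1. Since miR-660 and miR-532 make up most of this sum, it says little of the other 6 miRNAs.

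Other miRNAs on the X chromosome, 38 in the table outside the cluster, gave a different balance. Of these, 6 were higher and 8 lower in lactation, with a median log2 fold change of -0.06. They ranged from -1.27 to 1.99, which overlaps the range of the cluster members. Each was placed by the precursor kept. Hairpins elsewhere may thus add to the level of some, such as let-7f (placed by MIRLET7F-2) and miR-4286 (placed by MIR4286-2, with the value 1.99).

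Ratios within a library, which do not depend on scaling between libraries, show which members kept proportion. miR-660 over miR-532 was 5.21, 3.07 and 2.18 in HP, 3.18, 3.35 and 3.13 in LP, 3.28, 2.73 and 3.69 in HD and 2.77, 3.59 and 3.23 in LD. The stages overlapped fully, and the mean log2 ratio was 1.69 ± 0.40 in lactation and 1.67 ± 0.18 outside it (SD, n = 6).

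**Figure D3:**
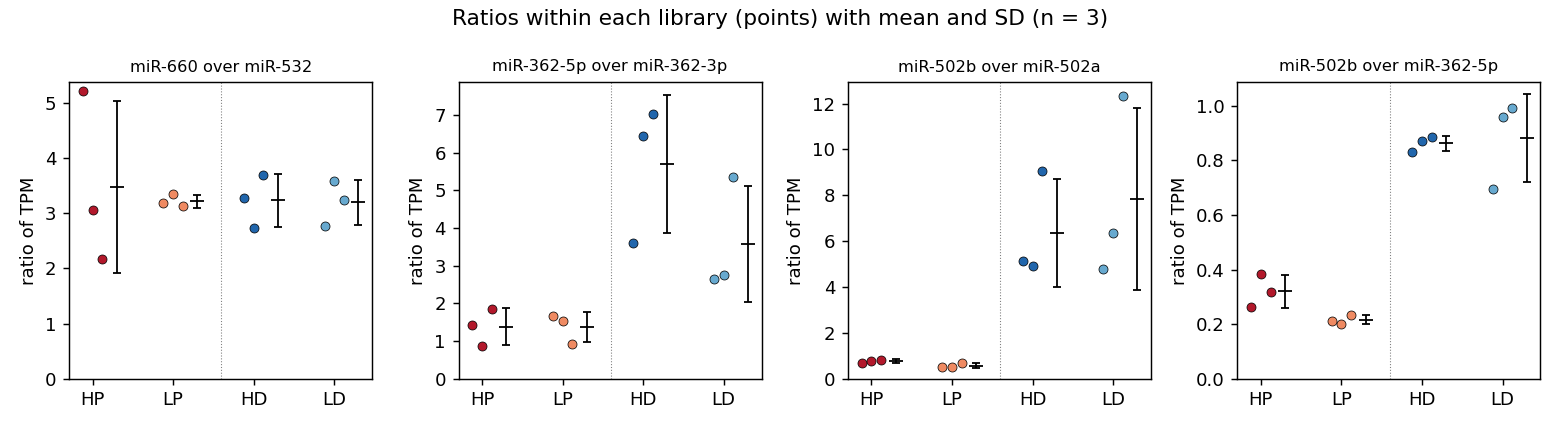
Ratio of TPM of 2 miRNAs within each library (points; linear axes from 0) with the group mean and SD. The ratio of miR-660 to miR-532 overlaps between the stages, whereas the other 3 ratios are higher in every HD and LD library than in any HP or LP library.

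The arms of the mir-362 hairpin did not keep proportion. The 5p arm over the 3p arm was 1.43, 0.860 and 1.85 in HP, 1.65, 1.54 and 0.931 in LP, 3.59, 6.45 and 7.03 in HD and 2.63, 2.75 and 5.34 in LD. All 6 non-lactating libraries lay above all 6 lactation libraries. The mean log2 ratio, with 1 added to the normalized TPM of each arm, was 0.39 ± 0.44 in lactation and 1.94 ± 0.56 outside it (SD, n = 6). The difference was -1.54 (p = 0.00216 by an exact two-sided permutation test over the libraries, which can give no smaller value here). Both arms come from the same precursor.

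A wider contrast was seen between miR-502b and miR-502a. miR-502b over miR-502a was between 0.496 and 0.829 in the 6 lactation libraries and between 4.80 and 12.3 in the 6 non-lactating ones. In each lactation library miR-502a thus exceeded miR-502b, and in each non-lactating library it was the reverse. miR-500 over miR-502a moved the same way, from 1.39 to 2.18 in lactation and from 3.77 to 5.57 outside it. The ratio of miR-188 to miR-532 overlapped between the stages. Planned instead was the log2 ratio of each member to the sum of the others, given here without a test. It overlapped between the stages for miR-188, miR-362-5p, miR-500, miR-532 and miR-660. Without overlap it differed (lactation minus non-lactating) by 1.18 for miR-362-3p, 1.01 for miR-502a and -2.04 for miR-502b.

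Outside lactation miR-502b ran close to miR-362-5p. The ratio of miR-502b to miR-362-5p was 0.696 to 0.992 there and 0.201 to 0.383 in lactation. In normalized TPM, LD replicate 3 was the highest non-lactating library for both and HD replicate 3 the next. Whether the pair shares reads was not tested.

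To describe how alike the profiles were, the root mean square difference of z-scores was taken over the 12 libraries, where 0 is an identical profile. The median over the 28 pairs of members was 0.754, against 1.42 over all 75078 pairs of miRNAs, of which 5.66% lay below 0.754. Without miR-502b the median over members was 0.641 over 21 pairs. The closest pair of members was miR-362-3p and miR-502a (0.407) and the farthest miR-188 and miR-502b (1.91). All pairs share the 12 libraries and their split by stage. With group means removed the median over members was 1.18 against 1.41 over all pairs, of which 26.0% lay below the median of the members. The closest pair of members was then miR-362-5p and miR-502b (0.339), both highest in LD replicate 3. They are neighbours in the gene order, but other neighbours ran from 0.791 (miR-362-5p and miR-500) to 1.75 (miR-188 and miR-502a).

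**Figure D4:**
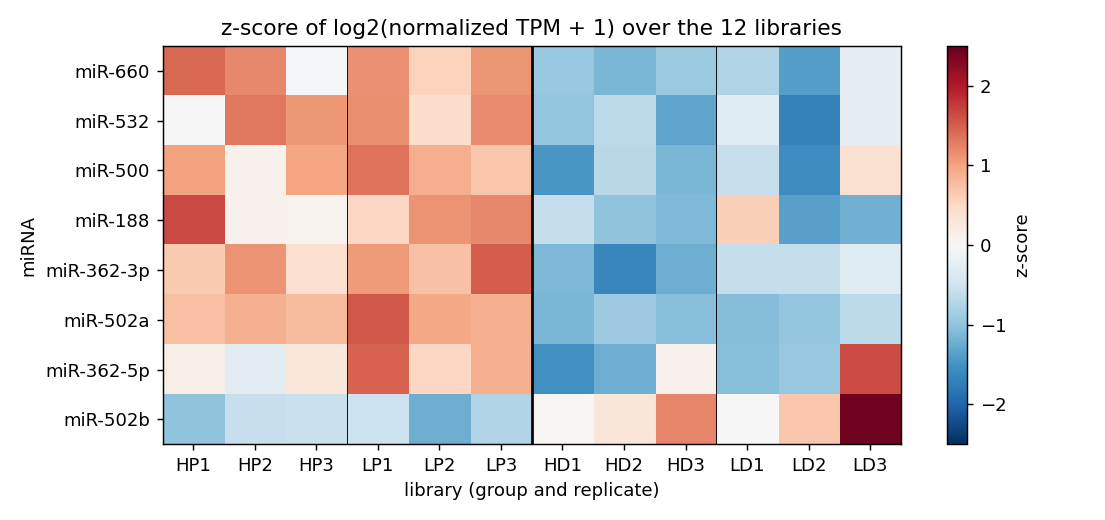
z-scores of log2(normalized TPM + 1) of each miRNA over the 12 libraries (colour scale from blue, low, to red, high; the thick line parts lactation from the non-lactating period). Most rows run from high in HP and LP to low in HD and LD, the row of miR-502b runs the other way, and miR-362-5p and miR-502b share their highest value in LD3.

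The 5 other miRNAs closest to the mean profile of the members over the 12 libraries were miR-148a (root mean square difference 0.327), miR-375 (0.402), miR-190a (0.429), miR-33a (0.437) and miR-6715 (0.445). Of the members only miR-500 (0.321) lay closer to that profile than miR-148a, and miR-502b lay farthest (1.72). Since the mean profile is itself higher in lactation, miRNAs chosen by closeness to it were bound to be higher there. The log2 fold changes of these 5 ran from 1.97 for miR-33a to 3.11 for miR-375. By deviations from the group means the closest were miR-183 (0.550), miR-6520 (0.580), miR-11999 (0.629), miR-9851 (0.655) and miR-7180 (0.685). These lists had no miRNA in common, and the mean of miR-11999 was 0.674 TPM, close to the limit of the table.

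High and low milk protein percentage were compared within each stage. A miRNA was DE where its unadjusted limma p-value was under 0.05 and its log2 fold change, low over high, exceeded 0.8 in either direction. Between HP and LP, 0 of the 8 members were DE, beside 10.1% of all miRNAs, and 0 had an unadjusted limma p-value under 0.05, beside 15.7%. The log2 fold changes (LP over HP) ran from -0.14 for miR-502b to 0.40 for miR-362-5p, with a median of 0.13 against -0.01 over all miRNAs.

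For the most highly expressed members the HP and LP values were nearly the same in the mean, with wide intervals. miR-660 had a log2 fold change of -0.01 (95% interval -0.59 to 0.57) and miR-532 of 0.01 (95% interval -0.58 to 0.60). The interval of miR-362-5p reached from -0.26 to 1.06. It was the only member whose HP and LP libraries did not overlap (36.5 at most in HP and 39.7 at least in LP), which held for 19.8% of all miRNAs.

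Between HD and LD, 1 of the 8 members was DE, beside 3.35% of all miRNAs (2.06% DE and higher in LD). miR-362-3p, whose values were given above, averaged 4.85 ± 1.27 in the HD libraries against 9.77 ± 1.41 in the LD libraries (normalized TPM scaled within the stage, SD, n = 3). Its groups did not overlap, as for 10.3% of all miRNAs. The log2 fold change (LD over HD) was 0.90 with SE 0.32, past the unadjusted threshold but with an adjusted p by limma of 0.935. With Benjamini-Hochberg adjustment 0 miRNAs passed, against 19 (4.9%) at an unadjusted limma p-value under 0.05. The call was lost without size factors (log2 fold change 0.69), with 5 added before log2 (0.59), without HD replicate 2 (0.73) and without LD replicate 3 (0.79). The paper, using DESeq2 with the same p-value and fold change thresholds, does not list miR-362-3p as DE between HD and LD. It lists many more miRNAs as DE between HD and LD than the 13 found here, and fewer between HP and LP than the 39 found here. The share of all miRNAs called thus differs with the method. In the same libraries 2 of 5 leukocyte markers and 1 of 2 endothelial markers were DE and higher in LD, the leukocyte list summing to 6953 to 10520 normalized TPM in HD and 13657 to 14500 in LD, and the part of either in the result was not tested.

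For the other 7 members the HD and LD libraries overlapped, with log2 fold changes from 0.07 (miR-660) to 0.35 (miR-502b) and an adjusted p by limma of 0.993 each. The interval of miR-660 reached from -0.50 to 0.65, and that of miR-502b, whose LD values ranged from 15.9 to 58.1, from -0.87 to 1.57. Without size factors the median of all miRNAs moved from 0.03 to -0.16, and miR-188, miR-500, miR-502a, miR-532 and miR-660 then had values below 0. The DE miRNAs over the whole table were 8 higher and 5 lower in LD with size factors and 0 higher and 3 lower without them.

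Whether the phenotype difference depended on stage was tested over the 12 libraries. At an unadjusted limma p-value under 0.05 there were 0 of the 8 members, beside 5.15% of all miRNAs, and 0 of 388 after adjustment. The difference of log2 fold changes, (LP over HP) minus (LD over HD), was largest in size for miR-362-3p at -0.50 (95% interval -1.51 to 0.51) and miR-502b at -0.48 (95% interval -1.80 to 0.84). With 3 cows a group these intervals leave room for differences of more than 1 log2 unit, so the stages were not shown to be alike.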

How the data were processed

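Small RNA libraries of 12 mammary biopsies were used. The authors trimmed reads with Cutadapt and Trimmomatic, kept lengths of 18 to 30 nt, aligned them with Bowtie to ARS-UCD1.2 and quantified miRBase miRNAs with miRDeep2. They deposited RPM values, named TPM, for 426 entries, and 0 columns were left unused. At least 98.3% of the values above 0 in each library were whole multiples (within 0.0052 TPM) of the value that 1 read takes. That value gave the read count summed over the listed entries, in which a read may be counted more than once. The value of 3 reads was 0.127 to 0.498 TPM, covering counting error only.

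Libraries were scaled by size factors (median of ratios), and log2 was taken after adding 1. Fits used limma 3.58.1 in R 4.3.3 with a mean-variance trend and adjustment over 388 miRNAs, on the 6 libraries of a stage (phenotype) or on all 12 as 4 group means (stage, interaction). The exact permutation test used scipy 1.17.1. In a test on simulated libraries 200 of 388 miRNAs differed by 1 log2 unit. The fits found 83% of them for stage, 62% for HP vs LP, 59% for HD vs LD and 53.5% for the interaction. They also called 1.60% to 2.66% of the unchanged miRNAs. Stage was called by adjusted and the others by unadjusted limma p-values, so these rates cannot be compared directly. The members and lists were chosen with earlier results of these data known. Named besides the members are markers and the 5 nearest profiles per scale. Of the mature miRNAs, 385 matched RefSeq. Replicate numbers belong to different cows. Of the planned ratio tests only that of the 2 arms of 1 hairpin is given. Alternatives were other scaling, pseudocounts of 0.1 and 5, a mean of at least 10 TPM, no trend, every entry, a replicate block, 1 fit over 12 libraries and leaving out libraries.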

Additional observations from a re-analysis of the deposited data

Results flagged for a closer look

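Within the 6 libraries of a stage, 18 sets of values (the 8 members and their sum in both stages) were examined for 1 library far from the rest, and 3 were found where chance gives about 1 in 20. miR-188 in LD replicate 1 had 13.8 normalized TPM, with a gap to the next non-lactating library of 0.717 of the range. miR-502a in LP replicate 1 had 23.8 normalized TPM, a gap of 0.780 of the range of the lactation libraries. miR-502b in LD replicate 3 had 58.1 normalized TPM, a gap of 0.652 of the range. Each of these miRNAs passed the stage threshold with and without that library.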

How the results depend on the processing

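Of the members' stage differences, 52 of 55 values under 7 other settings and 95 of 96 with 1 library left out kept both direction and side of the threshold. With TPM as deposited, without size factors, 4 members passed the stage threshold in place of 7, and with 1 library left out 7 to 8 passed. Members DE between HD and LD fell from 1 to 0 without size factors and with 5 added before log2, and were 0 to 1 with 1 library left out. Between HP and LP, and for the phenotype by stage term, 0 members passed in every setting run. Small differences changed sign, none of them past a threshold. Between HP and LP, miR-532 was -0.023 (log2) without size factors and miR-660 was 0.039 in 1 fit over 12 libraries. With 1 library left out the HP vs LP values ran from -0.051 to 0.16 for miR-500, from -0.19 to 0.14 for miR-532 and from -0.23 to 0.13 for miR-660. Between HD and LD without size factors they were -0.037 for miR-188, -0.040 for miR-500, -0.089 for miR-502a, -0.15 for miR-532 and -0.16 for miR-660. With 1 library left out the HD vs LD values ran from -0.28 to 0.39 for miR-188, -0.11 to 0.60 for miR-362-5p, -0.036 to 0.37 for miR-500, -0.033 to 0.20 for miR-502a, -0.18 to 0.77 for miR-502b, -0.051 to 0.30 for miR-532 and -0.075 to 0.20 for miR-660. For the phenotype by stage term without size factors miR-500 was 0.079, miR-532 0.13 and miR-660 0.12, and without HD replicate 1 and LD replicate 1 together miR-500 was 0.0054 and miR-532 0.068. With 1 library left out that term ran from -0.21 to 0.51 for miR-188, -0.20 to 0.50 for miR-362-5p, -0.32 to 0.11 for miR-500, -0.024 to 0.32 for miR-502a, -0.87 to 0.038 for miR-502b, -0.31 to 0.071 for miR-532 and -0.28 to 0.064 for miR-660. The cause of these sign changes was not tested. The log2 arm ratio of miR-362 (5p over 3p) differed between stages by -1.67 to -1.41 with 1 library left out, and by -1.68 and -1.15 with 0.1 and 5 added. Over all miRNAs, DE counts between HP and LP were 39, against 22 with 5 added, 50 with 0.1 added and 24 to 53 with 1 library left out. Between HD and LD they were 13, against 3 without size factors, 7 with 5 added and 6 to 36 with 1 library left out. Stage calls were 172, against 114 of 234 miRNAs with a mean of at least 10 TPM, a filter that removes miR-502a, and interaction calls were 20, against 8 with that filter and 13 to 32 with 1 library left out. Without size factors interaction calls split 14 higher and 3 lower, against 11 and 9. The replicate block left the members' counts at 0, 1, 7 and 0 (HP vs LP, HD vs LD, stage, interaction) and gave 34, 17, 170 and 20 over all miRNAs. Same-numbered libraries did not deviate together throughout (correlations across miRNAs of -0.20, -0.26 and 0.01 for HP with LP and 0.55, -0.11 and 0.50 for HD with LD), so the numbers were not taken as pairs. Count-based tests and another count scaling were planned and not run, since not all values came out as whole reads. Read numbers limit the low members most, with 52 to 256 reads a library behind miR-502a and 11363 to 22161 behind miR-660.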
